A study of Mus musculus with 9 samples.

Results

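The Ms4a family of myeloid membrane proteins was followed in mouse dendritic cells (DC) through 5 genes, Ms4a6d, Ms4a6b, Ms4a6c, Ms4a4c and Ms4a7. They were found by their symbol in the platform annotation among probe sets with exactly 1 symbol, which gave 8 probe sets of 22690 on the array and 5 of the 12393 genes that could be named. They were chosen by their log2 changes between untreated, TSA and butyrate arrays in earlier results of these data, so those changes are given as a description with errors, and a call counted for them is no test of the choice. Each of 3 groups held 3 arrays: untreated cells, cells given trichostatin A (TSA) and cells given butyrate. Both agents inhibit histone deacetylases, TSA as a hydroxamic acid and butyrate as a short-chain fatty acid of the gut flora. All 9 samples, the untreated ones too, were CD11c bead-purified spleen cells of mice bearing B16 tumours made to secrete Flt3L, a cytokine that expands DC. The labels name no strain, allele, dose or treatment time, so the inhibitors cannot be matched in strength. Nor do they say whether replicate arrays stand for separate mice or cultures, and p-values then measure only a spread between samples that may be technical.

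Ms4a proteins span the membrane repeatedly and keep both ends inside the cell. The best known are Ms4a1, the B cell antigen CD20, and Ms4a2, the beta chain of the high-affinity IgE receptor of mast cells and basophils, which amplifies signals from the receptor it sits beside. The Ms4a4, Ms4a6 and Ms4a7 branches are found mainly in monocytes, macrophages and DC, and some of their products associate with pattern receptors and adaptors at the surface.

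The genes lie in 1 cluster on mouse chromosome 19, and the promoter windows are shown because some neighbours there carry similar sequence. RefSeq's table for GRCm38.p6 gave windows of 300 bases, 250 before and 50 after the gene start, for 4 of the 5 genes. Ms4a4c spans chr19:11407411-11407710 on the plus strand and Ms4a6c chr19:11469118-11469417 on the plus strand. Ms4a6b spans chr19:11518309-11518608 on the plus strand, and the upstream of the 2 listed starts of Ms4a7 chr19:11336097-11336396 on the minus strand. Ms4a4b, the neighbour between Ms4a4c and Ms4a6c, is added for comparison at chr19:11443308-11443607 on the plus strand. Each is written 5′ to 3′ in the direction of transcription, and capitals mark the letters GGAAGT on either strand, the core bound by ETS factors such as PU.1.
Ms4a4c: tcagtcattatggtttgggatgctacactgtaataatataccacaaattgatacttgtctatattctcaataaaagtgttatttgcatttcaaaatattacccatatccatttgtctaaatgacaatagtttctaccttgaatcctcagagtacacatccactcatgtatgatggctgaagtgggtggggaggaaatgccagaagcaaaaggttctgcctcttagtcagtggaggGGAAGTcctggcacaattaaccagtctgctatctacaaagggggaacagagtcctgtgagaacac
Ms4a4b: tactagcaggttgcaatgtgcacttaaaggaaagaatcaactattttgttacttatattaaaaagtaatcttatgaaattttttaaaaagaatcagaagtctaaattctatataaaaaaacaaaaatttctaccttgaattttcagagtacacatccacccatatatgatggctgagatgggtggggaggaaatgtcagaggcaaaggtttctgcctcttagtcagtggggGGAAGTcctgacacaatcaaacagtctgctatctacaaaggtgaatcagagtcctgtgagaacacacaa
Ms4a6c: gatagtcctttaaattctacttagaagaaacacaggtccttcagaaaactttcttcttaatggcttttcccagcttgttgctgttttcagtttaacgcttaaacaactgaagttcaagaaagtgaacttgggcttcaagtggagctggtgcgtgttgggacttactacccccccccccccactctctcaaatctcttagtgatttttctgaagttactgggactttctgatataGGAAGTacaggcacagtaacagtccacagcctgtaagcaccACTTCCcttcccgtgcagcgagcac
Ms4a6b: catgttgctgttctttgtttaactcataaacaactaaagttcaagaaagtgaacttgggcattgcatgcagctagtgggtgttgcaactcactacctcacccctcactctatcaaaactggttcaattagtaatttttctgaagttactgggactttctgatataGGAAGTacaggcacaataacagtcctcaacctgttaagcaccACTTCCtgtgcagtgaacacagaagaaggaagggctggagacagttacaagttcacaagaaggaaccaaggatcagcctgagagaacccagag
Ms4a7: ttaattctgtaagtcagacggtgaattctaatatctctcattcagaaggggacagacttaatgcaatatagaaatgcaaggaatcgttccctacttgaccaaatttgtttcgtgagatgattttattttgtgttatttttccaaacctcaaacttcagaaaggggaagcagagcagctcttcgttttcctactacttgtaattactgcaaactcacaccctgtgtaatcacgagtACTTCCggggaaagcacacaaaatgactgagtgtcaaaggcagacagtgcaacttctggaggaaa

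Each of these windows held the core GGAAGT before the start. Positions of matches on either strand are given for their base farthest upstream. The core was 15 bases before the start in Ms4a4c, 19 in Ms4a4b, 16 in Ms4a6c and 15 in Ms4a7, where it is on the reverse strand. Ms4a6b had it 85 bases before the start and, on the reverse strand, 43 before. Of all 32851 promoter windows listed, 23.8% held the core somewhere, as did 9 of 19 Ms4a windows. The window at the downstream Ms4a7 start, which is not shown, did not hold it. A match is a description of the letters and not of a bound site.

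A pair of neighbours in each of the Ms4a4 and Ms4a6 branches shared the most sequence. Ms4a4c and Ms4a4b were identical at 230 aligned bases, 76.7% of the window, and Ms4a6c and Ms4a6b at 192 bases, 64.0%. The other 169 pairs of Ms4a windows ranged from 47.3% to 57.7% with a median of 52.3%. The longest exact run shared by Ms4a6c and Ms4a6b was 48 bases and contained the ETS core. It began 49 bases before the start of Ms4a6c and 118 before that of Ms4a6b. Ms4a4c and Ms4a4b shared a run of 20 bases just before the core, whereas the longest run in any other pair was 13 bases.
Ms4a6c and Ms4a6b: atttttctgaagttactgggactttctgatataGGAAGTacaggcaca
Ms4a4c and Ms4a4b: ttctgcctcttagtcagtgg

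Other motifs were also searched on both strands. The interferon regulatory factor core GAAANNGAA was found in 8.56% of all windows. Its base farthest upstream was 133 bases before the start in Ms4a6c, 206 in Ms4a6b and, on the reverse strand, 71 in Ms4a7. It had no match in the Ms4a4c window. The longer GAGGAAGT, which contains the ETS core, occurred in 3.2% of all windows and in 0 of the 19 Ms4a windows. The AP-1 letters TGANTCA (7.81% of all windows), the C/EBP letters TTGCNNAA (10.8%) and the CCAAT box (37.4%) were not found in the windows shown for the 4 members. The window at the downstream Ms4a7 start, not shown, did hold an AP-1 match 81 bases before that start and a CCAAT box after it. It also held the interferon regulatory factor core, 148 bases before that start.

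**Figure D1:**
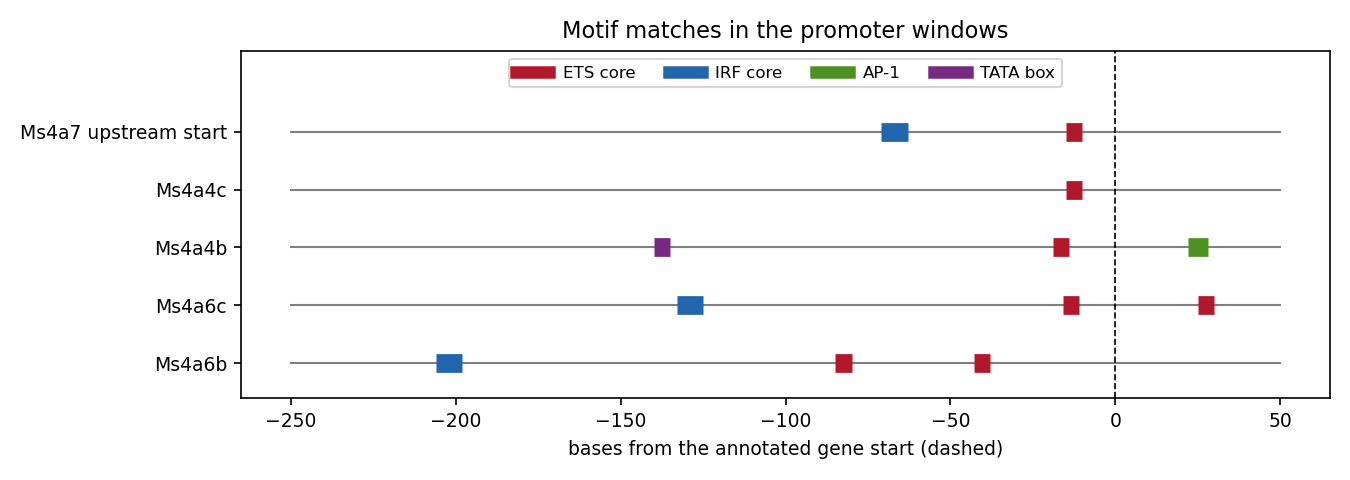
Motif matches in 5 promoter windows, drawn as distance in bases from the annotated gene start (dashed line). Lines are the windows and blocks the matches. The upstream end of the ETS core lies 15 to 19 bases before the start in Ms4a7, Ms4a4c, Ms4a4b and Ms4a6c, and farther away in Ms4a6b.

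With butyrate all 5 genes were over 2-fold lower than in untreated cells, while with TSA they ranged from about the untreated level (Ms4a6b) to 4.82-fold lower (Ms4a7). Ms4a6b and Ms4a4c differed least from untreated cells with TSA, Ms4a6d and Ms4a6c were lower with both and lower still with butyrate, and Ms4a7 was far down with both. Levels below are deposited log2 values, on which a step of 1 is a 2-fold change, and each change is given with limma's standard error over n = 3 arrays per group. A gene was called at a limma adjusted p under 0.05. With bulk RNA, fewer cells of a type and less RNA per cell cannot be told apart.

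Ms4a7, a marker of resident macrophages and of some DC, stood at 10.35, 10.46 and 10.30 on the untreated arrays. Its level was 8.24, 8.17 and 7.90 with TSA and 7.24, 7.61 and 7.41 with butyrate. The 3 groups did not overlap, and both treated groups lay far below the untreated one. The change was −2.27 ± 0.106 with TSA, a level 20.8% of the untreated one, and −2.95 ± 0.106 with butyrate, 12.9% of it. The TSA arrays had thus covered 76.9% of the butyrate change on the log2 scale. Between the inhibitors 0.68 remained, butyrate being 1.60-fold below TSA (95% interval of the difference −0.92 to −0.44).

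Ms4a6d, reported as a partner of pattern receptors on macrophages, was measured by 3 probe sets. The brightest, 1419599_s_at, read 9.53, 9.48 and 9.36 in untreated cells. With TSA it read 8.83, 8.46 and 8.30, and with butyrate 6.95, 6.97 and 7.08. The groups formed 3 separate steps, with TSA in the middle. The change was −0.93 ± 0.116 with TSA (1.90-fold) and −2.46 ± 0.116 with butyrate (5.50-fold), so TSA reached 37.7% of the butyrate change. Butyrate lay 1.53 below TSA, a 2.89-fold difference. Without the highest TSA array, replicate 1, the TSA change was −1.08 and the gap between the inhibitors −1.38.

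A further Ms4a6d probe set, 1419598_at, gave 8.87, 8.73 and 8.68 in untreated cells, 8.07, 8.00 and 7.81 with TSA, and 6.37, 6.08 and 6.09 with butyrate. It showed the same 3 steps, with changes of −0.80 ± 0.0956 and −2.58 ± 0.0956 and a gap of −1.78 between the inhibitors. The remaining one, 1449539_at, stayed between 3.30 and 3.48 on all 9 arrays, at the 0.7th percentile of probe sets, so no change can be read from it. Probe sets ending in _s_at or _x_at can also read related transcripts, which bears on a family of similar genes.

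Ms4a6c is a close relative of Ms4a6d and Ms4a6b in the same stretch of the cluster. It read 10.18, 10.07 and 9.87 in untreated cells, 9.72, 9.57 and 9.35 with TSA, and 8.30, 8.34 and 8.26 with butyrate. The highest TSA value lay just under the lowest untreated one, and the butyrate arrays lay more than 1 below both groups. The change was −0.50 ± 0.0987 with TSA, leaving 70.8% of the untreated level, and −1.74 ± 0.0987 with butyrate, leaving 30.0%. Butyrate was 2.36-fold below TSA (−1.24, 95% interval −1.46 to −1.02), and TSA reached 28.6% of the butyrate change.

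Ms4a4c belongs to the Ms4a4 branch and has 2 probe sets. The brighter one, 1420671_x_at, read 10.63, 10.70 and 10.50 in untreated cells and 10.52, 10.39 and 10.30 with TSA, so these groups overlapped. With butyrate it read 8.97, 8.98 and 9.01. The change was −0.21 ± 0.0673 with TSA and −1.62 ± 0.0673 with butyrate, a 3.08-fold difference from untreated. TSA reached 12.7% of the butyrate change, and butyrate was 2.67-fold below TSA (−1.42).

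The 1450291_s_at probe set of Ms4a4c read 10.50, 10.53 and 10.46 in untreated cells, 10.42, 10.28 and 10.27 with TSA, and 8.62, 8.89 and 8.82 with butyrate. Here the TSA arrays lay just under the untreated ones without overlap, but the TSA change was not called. The changes were −0.17 ± 0.0760 and −1.72 ± 0.0760, with a gap of −1.55 between the inhibitors.

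Ms4a6b, which is also expressed in T cells, was the member that differed least with TSA. It read 10.19, 10.13 and 10.06 in untreated cells and 10.24, 10.07 and 10.08 with TSA. With butyrate it read 8.83, 8.89 and 8.95. The untreated and TSA arrays were interleaved, whereas all 3 butyrate arrays were lower by over 1. The TSA change was 0.00 ± 0.0618 with a 95% interval from −0.14 to 0.14, so a TSA change of that size or smaller in either direction cannot be told from none. The butyrate change was −1.23 ± 0.0618, leaving 42.5% of the untreated level, and butyrate was 2.36-fold below TSA.

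**Figure D2:**
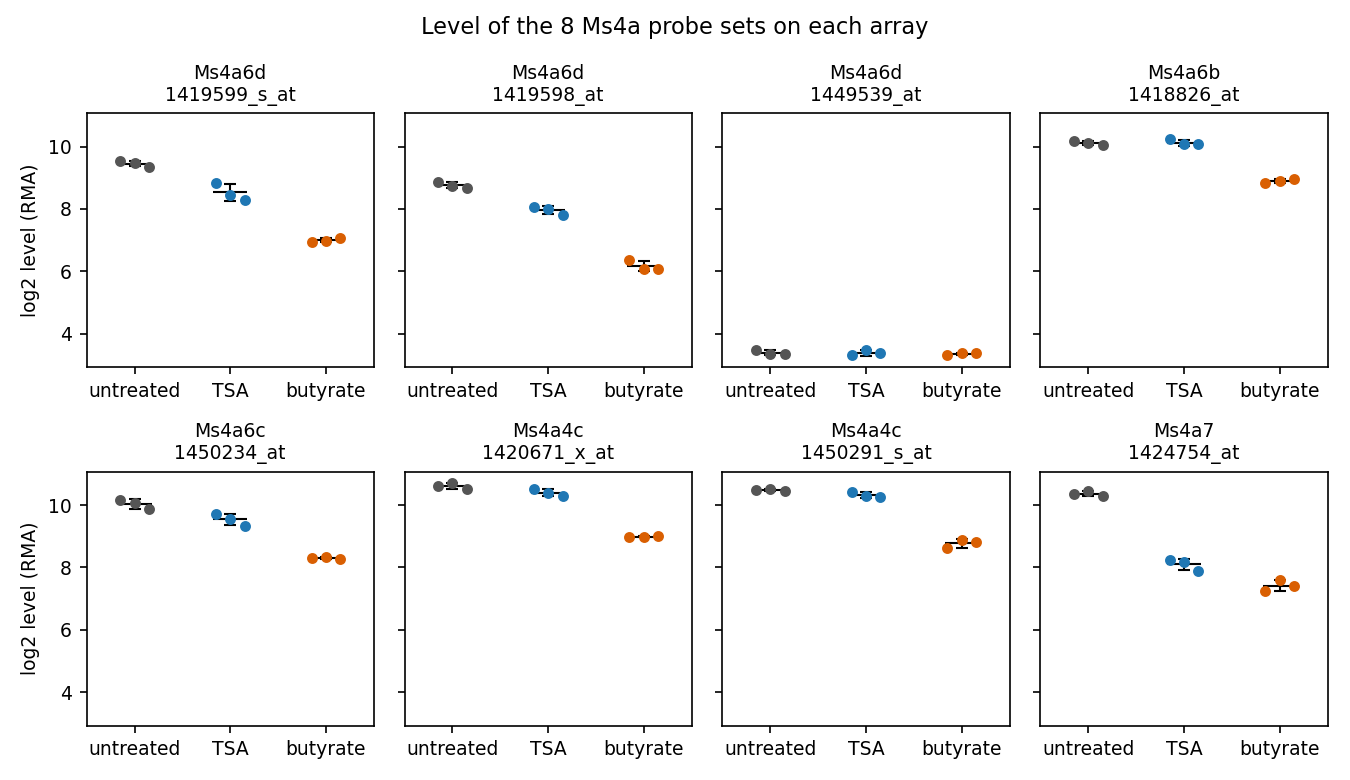
Log2 level (RMA) of the 8 probe sets of the 5 genes on each of the 9 arrays. Points are arrays, horizontal bars group means and whiskers 1 SD (n = 3). Butyrate arrays are lowest in 7 panels; TSA arrays sit near the untreated ones for Ms4a6b and Ms4a4c and near the butyrate ones for Ms4a7; 1449539_at stays at about 3.4 throughout.

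By the size of the TSA change the genes ran Ms4a7, Ms4a6d, Ms4a6c, Ms4a4c, Ms4a6b. The 95% interval of Ms4a7 overlapped no other, and each of the other genes overlapped its neighbour in that order. Butyrate gave the same order (−2.95, −2.46, −1.74, −1.62 and −1.23). There Ms4a7 and Ms4a6d overlapped at the edge of their intervals, as did Ms4a6c and Ms4a4c more broadly, while Ms4a6b stood apart from Ms4a4c. Both contrasts share the untreated arrays. In butyrate minus TSA the order was Ms4a6d (−1.53), Ms4a4c (−1.42), Ms4a6c (−1.24), Ms4a6b (−1.24) and Ms4a7 (−0.68), and only the interval of Ms4a7 lay apart from those of the other 4.

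Set against all genes, 4 of the 5 ranked lower in butyrate minus TSA than in either contrast with untreated cells, Ms4a7 being the exception. From the lowest of 12393 genes in butyrate minus TSA, Ms4a6d ranked 4, Ms4a4c 6, Ms4a6c 11, Ms4a6b 13 and Ms4a7 175. Of the 5 genes, 4 were called and at least 2-fold lower with butyrate than with TSA, against 0.29% of all genes (36 genes). In the fit over every probe set so were 6 of the 8 probe sets, with more than 1 each for Ms4a6d and Ms4a4c. No share over all probe sets was counted there. All 5 genes were called lower in butyrate minus TSA and all 5 had arrays without overlap, against 20% and 25.8% of all genes. For butyrate against untreated all 5 were called lower, at least 2-fold lower and without overlap, against 24.8%, 4.6% and 26.2%. For TSA 4 were called lower, 3 had no overlap and 1 was at least 2-fold lower, against 21%, 23.9% and 3.28%. Since these contrasts chose the genes, the shares are given as background and nothing is read from them. The median change of the 5 was −0.50 with TSA, −1.74 with butyrate and −1.24 between them, beside 0.03, 0.08 and 0.03 for all genes.

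The TSA call of Ms4a4c did not hold without untreated replicate 1 or 2 (change −0.20 and −0.16) or TSA replicate 2 or 3 (−0.20 and −0.16). It also did not hold with either spike-in scaling or with the untreated and TSA arrays fitted alone. The dimmer Ms4a4c probe set, 1450291_s_at, was not called with TSA in the fit over every probe set. A TSA change within 0.3 of 0 together with a butyrate change of −1 or below was seen in 12 genes, 0.0968% of all, and 2 of them were Ms4a6b and Ms4a4c. These limits were set after the values were seen, and the count of genes with a TSA change within 0.3 of 0 and a butyrate change of -1 or below was 136 after hybridization spike-in scaling and 69 after poly-A scaling.

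Technical values moved with butyrate as well. The hybridization spike-ins averaged 10.37 ± 0.08 (SD, n = 3) in untreated cells, 10.38 ± 0.03 with TSA and 10.78 ± 0.06 with butyrate. The poly-A spike-ins averaged 7.58 ± 0.24, 7.59 ± 0.12 and 7.87 ± 0.07. Scaling to them moved the median of all genes in butyrate minus TSA to −0.37 and −0.24, and in butyrate minus untreated to −0.33 and −0.20. Of the genes called with butyrate 57.5% were higher than untreated, but 9.97% and 18.6% on these scales. Between the inhibitors 44.2% of calls were higher with butyrate, but 0.917% and 1.88% on these scales. Relative to that median the members moved by the same amount as before, and all 5 remained lower with butyrate than with TSA (−1.93 to −1.08 on the hybridization scale). The actin 3′ minus 5′ difference, a sign of RNA quality, was 0.432 ± 0.066 in untreated cells, 0.641 ± 0.042 with TSA and 0.682 ± 0.040 with butyrate. The part of these values in the changes was not tested. Arrays correlated across genes with r from 0.9971 to 0.9985 within a group.

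Of the other Ms4a genes 7 had a probe set. Of these 3 fell with TSA, 3 fell with butyrate, and between the inhibitors 2 were lower and 1 higher with butyrate. After hybridization scaling 7 fell with butyrate, and 5 were lower and 0 higher than with TSA. Ms4a3, known from granulocyte and monocyte precursors, changed by −1.10 ± 0.0747 with TSA (limma adjusted p = 7.5e-07), by −1.41 with butyrate (9.46e-08) and by −0.32 between the inhibitors (0.00893). Like Ms4a7 it showed most of its fall already with TSA.

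Ms4a4b, the neighbour and close relative of Ms4a4c, changed by −0.31 ± 0.0957 with TSA (limma adjusted p = 0.0226) and −1.02 with butyrate (6.23e-06). The gap between the inhibitors was −0.72 (0.00036), at rank 142 of 12393. Its TSA call did not hold without untreated replicate 1 (−0.23), without TSA replicate 3 (−0.21) or after poly-A scaling (−0.32). A dimmer Ms4a4b probe set, 1425325_at, was not called (−0.13, −0.07 and 0.06). It read 5.02 to 5.39 over the 9 arrays, near the 25th percentile of genes, so no change can be read from it.

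Ms4a1, the B cell antigen CD20, went the other way between the inhibitors. It changed by −0.50 ± 0.0829 with TSA (limma adjusted p = 0.000478) and −0.25 with butyrate (0.0247), so butyrate was above TSA by 0.25 (0.0381). That last direction turned with spike-in scaling (−0.15 and −0.02), and the call did not hold without TSA replicate 2 or 3, without butyrate replicate 2 or 3 (0.19 to 0.24) and with the replicate number as a block (adjusted p = 0.0656). Its butyrate call did not hold without untreated replicate 1 or 2 or butyrate replicate 1 (−0.23 to −0.18) or after a further quantile normalization (−0.17). A further probe set, 1450912_at, gave −0.71, −0.41 and 0.31. Ms4a2, Ms4a4d, Ms4a8a and Ms4a10 were not called in any of the 3 comparisons on the deposited scale. After hybridization scaling, which moved the median of all genes in butyrate minus untreated to −0.33, all 4 were called lower with butyrate than untreated (Ms4a2 −0.38, Ms4a4d −0.34, Ms4a8a −0.45 and Ms4a10 −0.37). With the replicate number as a block Ms4a4d was called higher with butyrate than with TSA (0.21, limma adjusted p = 0.0181). Without TSA replicate 2 or butyrate replicate 3 Ms4a4d was called higher with butyrate than with TSA (0.27 in both), as was Ms4a8a without butyrate replicate 3 (0.25). Ms4a2, Ms4a4d and Ms4a10 lay below the 25th percentile of genes on all 9 arrays, where a change would be understated.

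Tmem176a and Tmem176b encode relatives of the Ms4a proteins with a like membrane layout, found in immature DC. Tmem176a changed by −1.79 ± 0.0659 with TSA (limma adjusted p = 1.94e-08), −2.32 with butyrate (2.65e-09) and −0.53 between them (0.000228). Tmem176b changed by −1.51 ± 0.0607 (2.78e-08), −2.10 (3e-09) and −0.59 (8.33e-05). Most of the fall of both was present with TSA, as for Ms4a7. Distance was taken as the root mean square difference between log2 values over the 9 arrays, each minus its own untreated mean. Among the members Tmem176a was nearest to Ms4a7 (0.466), before Ms4a6d (0.511). Tmem176b was nearest to Ms4a6d (0.411), before Ms4a6c (0.627) and Ms4a7 (0.665).

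**Figure D3:**
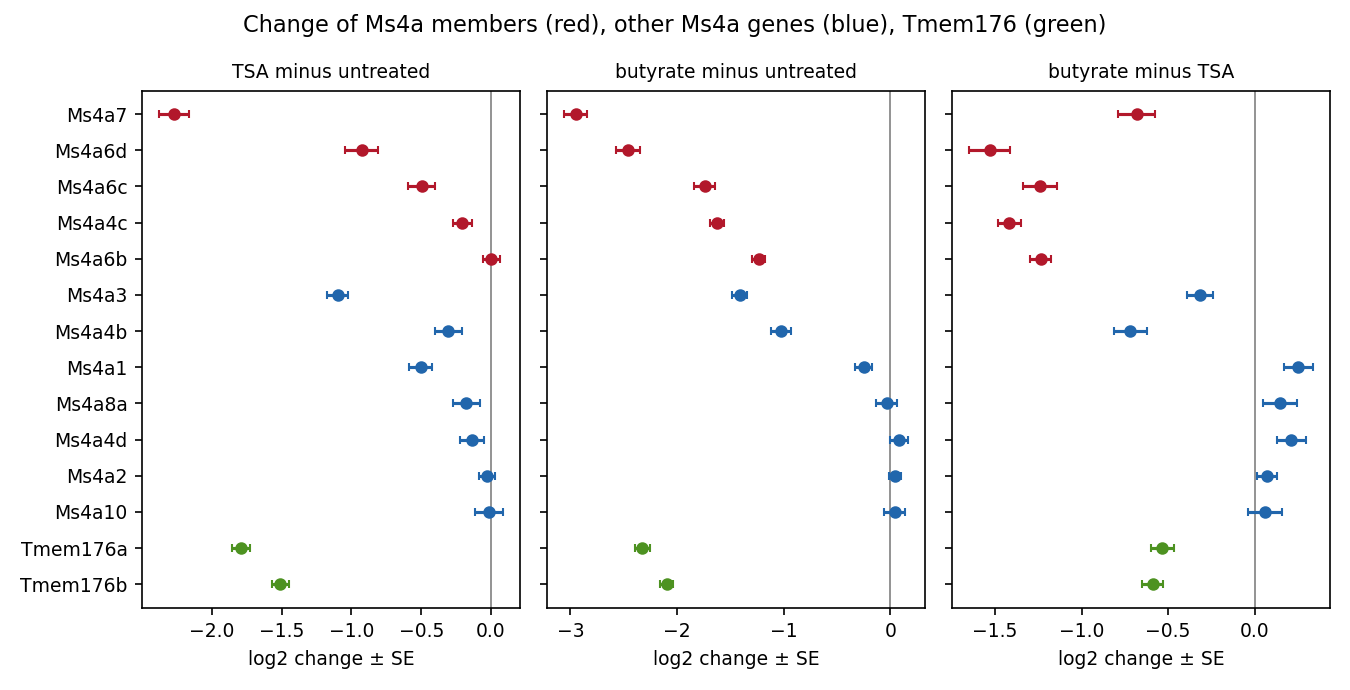
Log2 change ± SE of the 5 genes (red), the other measured Ms4a genes (blue) and both Tmem176 genes (green) in 3 comparisons (n = 3 arrays per group). Zero is the vertical line. In butyrate minus TSA 4 red points lie beyond −1 and no blue or green point does.

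Along chromosome 19 the genes lowered with TSA did not form 1 unbroken block. Ms4a6b, at 10.13 untreated and 0.00 with TSA, lies between Ms4a6c (−0.50) and Ms4a6d (−0.93). Whether the genes lowered with butyrate form 1 block cannot be read, because dim genes lie among them. The cluster holds 23 genes from Ms4a10 to Ms4a3, of which 13 were measured. Ms4a1, Ms4a7, Ms4a4c, Ms4a4b, Ms4a6c and Ms4a6b follow each other among the measured genes, then come Ms4a4d, which was at floor level, Ms4a6d, the dim Ms4a2 and Ms4a3. AW112010, an interferon-inducible transcript inside the cluster, changed by −0.46 ± 0.0593 with TSA (limma adjusted p = 8.58e-05) and −0.94 with butyrate (3.25e-07). The 10 nearest measured genes, 5 on each side, were added after the members' values were known. Of these 6 rose and 0 fell with TSA, and 4 rose and 1 fell with butyrate. Of all 12393 genes 3262 rose and 2604 fell with TSA, and 4166 rose and 3075 fell with butyrate. Prpf19 rose by 0.89 with TSA and 0.58 with butyrate (2.9e-07 and 4.74e-06), and Mrpl16 by 0.71 and 0.30 (9e-07 and 0.000392). Ccdc86, next to the cluster, rose with TSA (0.60, 2.69e-05) and fell with butyrate (−0.36, 0.000823). In butyrate minus TSA 4 of the 10 flanking genes were called lower, against 20% of all genes. They were Ccdc86 (−0.96, limma adjusted p = 1.21e-05), Mrpl16 (−0.41, 0.000206), Stx3 (−0.35, 0.000573) and Prpf19 (−0.31, 0.00158). The gap of Ccdc86 was thus wider than that of Ms4a7.

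**Figure D4:**
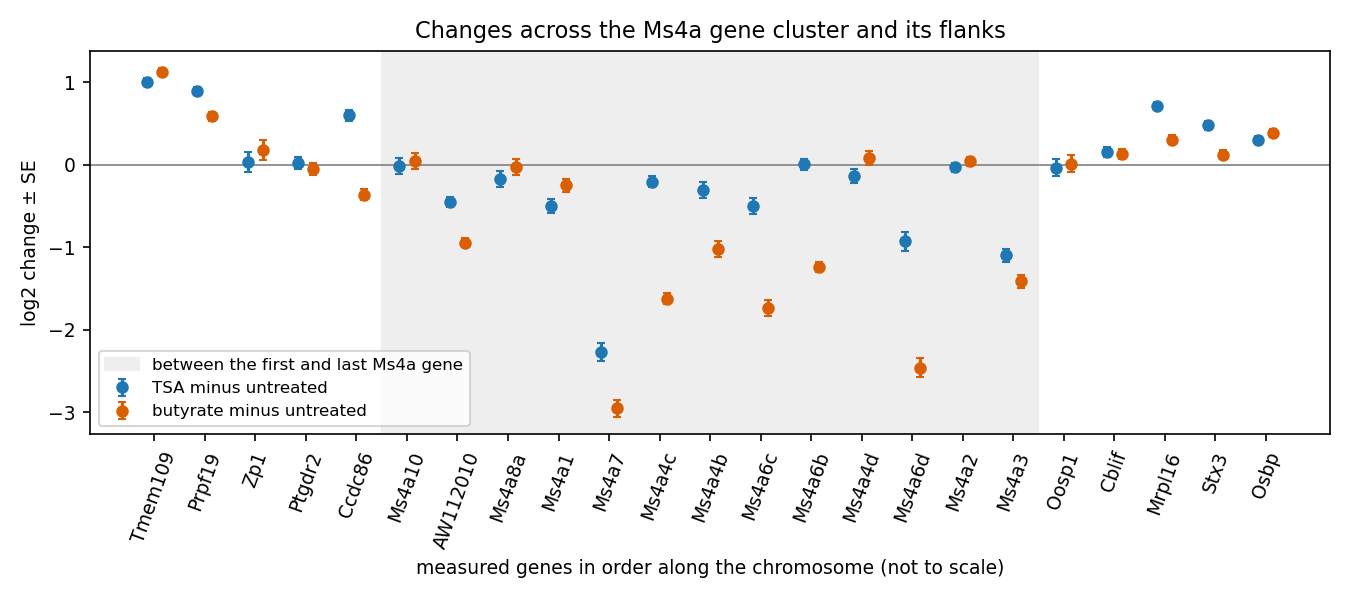
Log2 change ± SE with TSA (blue) and butyrate (orange) for the measured genes in chromosome order, not to scale; shading spans the first to the last Ms4a gene. Falls beyond −1 with butyrate are seen inside the shaded region and not among the flanking genes.

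The genes whose profile over the 9 arrays was nearest to each member were ranked by the root mean square difference between log2 values, each minus its own untreated mean. Nearest to Ms4a6d were Cd14 (0.270), the lipopolysaccharide coreceptor, Cyp1a1 (0.280), a target of the aryl hydrocarbon receptor, and Clec4e (0.283), the receptor Mincle. Nearest to Ms4a7 were Nqo1 (0.140), a quinone reductase, and the metalloproteases Mmp13 (0.160) and Mmp12 (0.166). Ms4a6c and Ms4a4c were close to each other (0.193): Ms4a4c followed Klra17 (0.146) and Ifi209 (0.155) for Ms4a6c, and Ms4a6c came first for Ms4a4c, before Utp20 (0.203) and Hpgd (0.218). Nearest to Ms4a6b were Ccdc43 (0.114), Hpgd (0.122), which degrades prostaglandins, and Xcr1 (0.142), the chemokine receptor of cross-presenting DC. Thus Hpgd, with −0.17 with TSA and −1.27 with butyrate, was near both members that differed least with TSA.

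Proteins tied to Ms4a signalling were measured through 11 genes, and 7 fell with TSA. With butyrate 6 fell and 1 rose, and between the inhibitors 2 were lower and 1 higher with butyrate. That rise did not hold with spike-in scaling, without untreated replicate 1 or 3, or without any 1 butyrate array. Clec7a, the beta-glucan receptor Dectin-1, changed by −0.71 ± 0.0827 with TSA (limma adjusted p = 3.84e-05) and −1.24 with butyrate (5.21e-07), with a gap of −0.52 (0.000951). Cd40 fell with both (−1.50 ± 0.0532 and −1.38), as did Tyrobp, the adaptor DAP12 (−0.64 and −0.74). The gaps of Cd40 (0.12, adjusted p = 0.0974) and Tyrobp (−0.10, 0.159) did not pass the test. Vsig4 and Fcer1a lay below the 25th percentile on all arrays.

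Transcription factors of myeloid cells were mixed: 2 of 16 rose and 8 fell with TSA, 4 rose and 8 fell with butyrate, and 7 were higher and 6 lower with butyrate than with TSA. After hybridization scaling the last counts were 2 and 10. Without untreated replicate 2 or 3, TSA replicate 2 or 3, or any 1 butyrate array, 1 rise remained with TSA, and spike-in scaling left 2 with butyrate. Spi1, which encodes PU.1, changed by −0.97 ± 0.0501 with TSA (limma adjusted p = 1.21e-07) and −1.45 with butyrate (6.65e-09), and Cebpd by −0.71 and −1.25 (4.27e-05 and 5.18e-07). Zeb2 changed by −1.47 and −2.51 (0.000123 and 1.88e-06), while Nr4a1, an immediate early gene, rose by 0.58 and 1.85 (8.7e-05 and 1.72e-08). These 4 had the largest changes with butyrate against untreated cells, and between the inhibitors they gave −0.48 (Spi1), −0.54 (Cebpd), −1.04 (Zeb2) and 1.27 (Nr4a1). Of 17 interferon-stimulated genes all 17 fell with TSA and 14 fell with butyrate, and their median gap between the inhibitors was 0.05. The median gap of all genes was 0.03.

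The labelled cell type was checked against markers. The pan-DC markers had summed levels, as log2 of the added linear levels, of 16.03 to 16.06 untreated, 15.99 to 16.02 with TSA and 15.91 to 15.93 with butyrate. That sum is carried by the class II genes H2-Aa, H2-Ab1 and Cd74. Of the 7 markers 5 fell with TSA and 4 with butyrate: Itgax, which encodes CD11c (−0.99 and −0.74), Flt3, the Flt3L receptor (−0.60 and −0.63), Zbtb46 (−0.58 and −0.67) and Ciita (−0.51 and −0.97) fell with both. Without H2-Aa the sums were 15.35 to 15.38, 15.25 to 15.30 and 15.19 to 15.23. With hybridization scaling, a filter to genes above the median level or a trend and robust prior, 7 fell with butyrate. None of the 7 lay below the 25th percentile of genes on all 9 arrays. The same held for the 9 monocyte, 13 macrophage, 10 neutrophil and 9 T cell markers measured. Of 9 B cell markers Pax5 and Ebf1 did lie below it, while Ms4a1 (9.19 untreated) and Cd79b (7.74) did not, and of 7 melanoma markers Tyr, Tyrp1 and Dct did, while Mitf (8.52) did not.

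Monocyte and macrophage markers are given because those cells also express Ms4a genes. Of 9 monocyte markers 7 fell and 1 rose with TSA, and 7 fell and 2 rose with butyrate. Ccr2, the receptor for monocyte exit from bone marrow, changed by −0.44 ± 0.106 with TSA (limma adjusted p = 0.00538) and −2.16 with butyrate (5.64e-08), a gap of −1.72 (7.49e-06). Cd14 (−1.33 and −2.38) and Vcan (−1.93 and −2.82) fell with both, but Plac8 rose by 0.70 and 1.43 (4.2e-07 and 3.74e-09). The summed level of the list was 14.29 to 14.32 untreated, 14.04 to 14.13 with TSA and 14.35 to 14.39 with butyrate. Plac8, the brightest of the list with butyrate, carries much of that sum, and without it the sums were 14.03 to 14.05, 13.46 to 13.59 and 13.55 to 13.56. Between the inhibitors 3 were lower and 2 higher with butyrate, and 8 and 1 after hybridization scaling. The sum of the 5 Ms4a genes ran 12.39 to 12.55, 11.79 to 12.06 and 10.60 to 10.67.

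Of 13 macrophage markers 12 fell with TSA and 11 with butyrate, while 2 were lower and 1 higher with butyrate than with TSA. The last count was 2 without untreated replicate 2 or TSA replicate 3 and 0 without TSA replicate 2 or butyrate replicate 3. Spic, the factor of red pulp macrophages, changed by −2.73 ± 0.0909 and −2.89 (limma adjusted p = 1.07e-08 and 3.87e-09), Cd5l by −1.66 and −1.75, and Vcam1 by −1.26 and −1.62. Their summed level was 13.04 to 13.17 untreated, 12.18 to 12.27 with TSA and 11.96 to 12.11 with butyrate. After hybridization scaling the counts between the inhibitors were 10 lower and 0 higher.

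Markers of other cells moved as well. Of 7 NK cell markers 4 fell with TSA, and 3 fell and 1 rose with butyrate, with summed levels of 10.40 to 10.53 untreated, 9.60 to 9.67 with TSA and 9.09 to 9.20 with butyrate. Klrk1, the receptor NKG2D and the brightest of them, changed by −1.36 ± 0.0718 and −2.58 (limma adjusted p = 1.44e-07 and 2.39e-09), a gap of −1.22 (7.49e-06). Without Klrk1 the NK cell sums were 9.20 to 9.25 untreated, 8.85 to 8.92 with TSA and 8.70 to 8.82 with butyrate. The defining Ncr1 lay below the 25th percentile on all arrays. Among 9 T cell markers 4 fell with TSA, and 2 fell and 2 rose with butyrate. Their summed levels were 10.26 to 10.35 untreated, 9.82 to 9.95 with TSA and 10.02 to 10.09 with butyrate. With either spike-in scaling 0 T cell markers rose with butyrate, and poly-A scaling gave 2 falls with TSA. Of 7 plasmacytoid DC markers 5 fell with TSA, and 6 fell and 1 rose with butyrate. Ccr9 changed by −1.53 ± 0.0548 and −2.38 (limma adjusted p = 1.63e-08 and 7.4e-10), a gap of −0.85 (8.97e-06), whereas Spib rose with butyrate by 0.79 (1.5e-06). Of 10 neutrophil markers 7 fell with TSA, 6 fell and 3 rose with butyrate, and 8 were higher with butyrate than with TSA. That last count was 5 without TSA replicate 2 and 0 with either spike-in scaling. The summed neutrophil level was 15.244 to 15.285 untreated, 14.914 to 14.975 with TSA and 15.193 to 15.213 with butyrate. Without S100a8, the brightest of that list, it was 14.561 to 14.629, 14.097 to 14.161 and 14.393 to 14.409. Hybridization scaling gave 6 NK cell, 7 T cell and 10 neutrophil markers lower with butyrate than untreated. The part of other cell types in the changes of the Ms4a genes was not tested.

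Among DC subset markers, 7 of 8 of the CD11b type fell with TSA, and 7 fell and 1 rose with butyrate. Clec4n, the receptor Dectin-2, changed by −3.62 ± 0.101 and −4.64 (limma adjusted p = 3.41e-09 and 5.33e-10), Clec4a2 by −1.77 and −2.70 and Sirpa by −1.11 and −1.71. Irf4 was at 0.00 with TSA (0.987) and rose by 0.68 with butyrate (1.52e-06). Of 8 CD8-type markers 3 fell and 2 rose with TSA, and 4 fell and 3 rose with butyrate. After poly-A scaling 0 of these rose, and after hybridization scaling 2 with TSA and 0 with butyrate. With TSA 1 rise remained without untreated replicate 1 or 3 or TSA replicate 1 or 2, and with butyrate 1 remained without butyrate replicate 1. Xcr1 was at 0.16 ± 0.0718 with TSA (0.0942) and −1.12 with butyrate (3.7e-07). Between the inhibitors Xcr1 (−1.28, limma adjusted p = 6.97e-06) and Ly75 (−0.49, 0.00076) were lower with butyrate, and Cd8a (0.27, 0.0262), Itgae (0.23, 0.0446) and Batf3 (0.21, 0.00526) higher. Of these rises 1 remained without TSA replicate 1 or 2 or butyrate replicate 1 or 3, and 0 with spike-in scaling. Summed levels of the CD8-type list were 13.94 to 13.96 untreated, 14.00 to 14.01 with TSA and 13.97 to 13.98 with butyrate. Without its brightest gene, Cd24a, they were 12.25 to 12.33, 11.84 to 11.87 and 11.52 to 11.55. For the CD11b type the full sums were 11.94 to 11.97, 10.38 to 10.52 and 10.24 to 10.29. Without Sirpa, the brightest of that list, they were 11.458 to 11.491, 9.686 to 9.828 and 9.763 to 9.825.

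**Figure D5:**
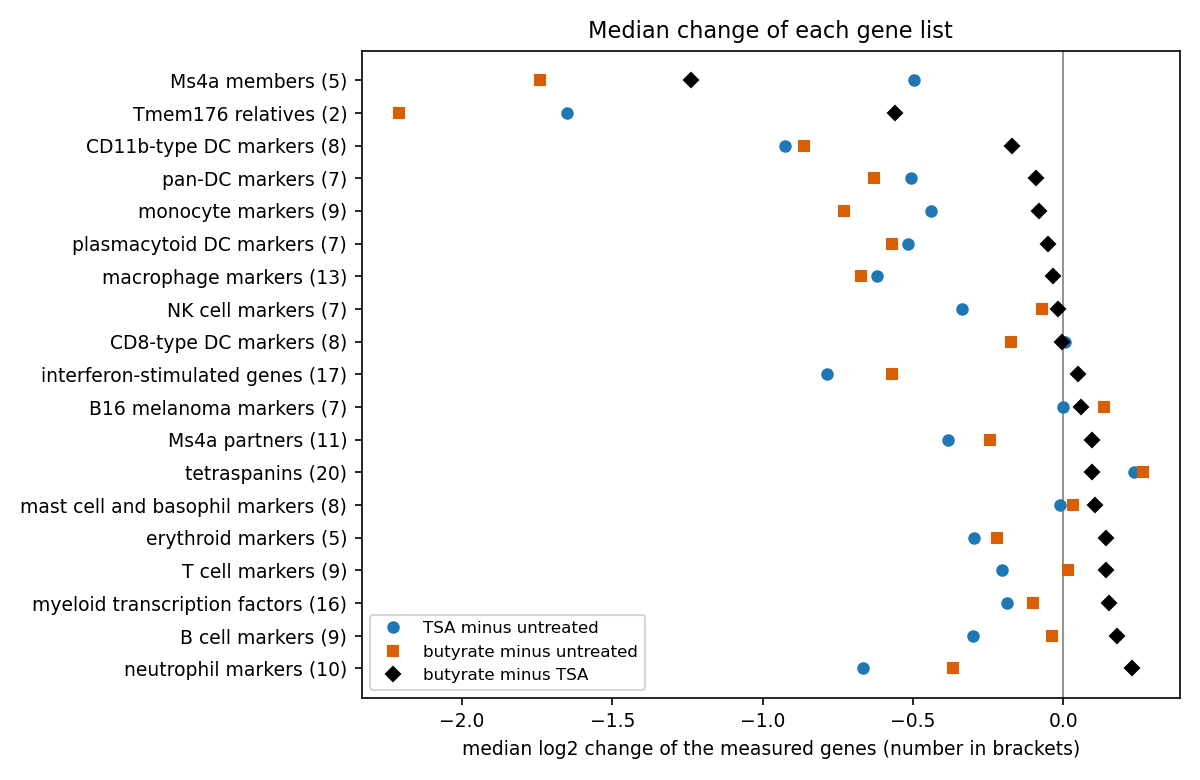
Median log2 change of the gene lists in 3 comparisons, with the number of measured genes in brackets. The list of other Ms4a genes is not drawn (median 0.07 in butyrate minus TSA). The Ms4a members have a median of −1.24 in butyrate minus TSA, the Tmem176 pair −0.56, and the other lists lie between −0.17 and 0.23. The members were chosen by these changes, so their distance from the other lists is no test.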

How the data were processed

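The authors deposited log2 levels of 22690 probe sets, processed with RMA per the submitters' processing notes. That method corrects background, quantile-normalizes the arrays and summarises each probe set. For the program, its version and the probe sets' definition the sources used here give nothing. RMA understates changes of dim genes, and 3 arrays per group limit the precision.

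By the platform annotation 20380 probe sets had 1 symbol, 691 several, 1555 no listed symbol and 64 were controls. Each of 12393 genes was represented by its brightest probe set on average over the arrays. All 9 arrays were fitted with limma 3.58.1 in R 4.3.3 (lmFit, eBayes; 6 residual and 3.9 prior degrees of freedom), with Benjamini-Hochberg adjustment over all genes. Calls needed an adjusted p below 0.05. A fit over every probe set with 1 symbol gave the values of further probe sets. The procedure was tested on simulated data.

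The members and the gene lists were chosen with earlier results of these data known. The text names all members, the other Ms4a and Tmem176 genes, up to 4 called genes with the largest changes per list described, and the 3 genes nearest each member. Promoters were read from RefSeq's table and aligned with Biopython 1.88. Alternatives were other scalings, filters, probe set rules and priors, a block for replicate number, and leaving out each array. Sums of marker levels without the brightest gene were added after seeing the data. Protein sequences were not used here.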

Additional observations from a re-analysis of the deposited data

How the results depend on the processing

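All 5 members stayed lower with butyrate than with TSA and than untreated in every alternative run, which supports nothing, since these contrasts chose the genes. With TSA the call of Ms4a4c did not always hold. With hybridization spike-in scaling the butyrate changes were −2.87 (Ms4a6d), −1.65 (Ms4a6b), −2.15 (Ms4a6c), −2.04 (Ms4a4c) and −3.37 (Ms4a7), and the gaps to TSA −1.93, −1.64, −1.64, −1.82 and −1.08. With poly-A scaling they were −2.74, −1.52, −2.02, −1.91 and −3.23, with gaps of −1.80, −1.51, −1.51, −1.69 and −0.95. These shifts follow from the construction of the scales. Averaging all probe sets of a gene, which includes the one at the floor, gave Ms4a6d −0.58 with TSA, −1.69 with butyrate and −1.11 between them.

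Leaving out 1 array gave Ms4a6d −1.08 to −0.81 with TSA and −1.65 to −1.38 between the inhibitors.

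Counts over all genes moved more. With poly-A scaling 3201 genes were called with TSA (1604 higher, 1597 lower) and 4458 with butyrate (828 higher), and 59 were higher with butyrate than with TSA. With hybridization scaling 932 were higher and 8417 lower with butyrate than untreated, and 10140 differed between the inhibitors (93 higher, 10047 lower). Among genes above the median level, a filter that tests fewer genes, 2472 were higher with butyrate than untreated and 1284 higher than with TSA.

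Hybridization scaling turned the direction with butyrate of Ms4a2 (−0.38), Ms4a4d (−0.34), Ms4a10 (−0.37) and Itgae (−0.16; −0.025 with poly-A scaling). Between the inhibitors it turned Ms4a1 (−0.15; −0.020 with poly-A scaling), Ms4a2 (−0.33), Ms4a8a (−0.26), Ms4a10 (−0.34), Cd40 (−0.28), Cd79b (−0.23), Fcgr1 (−0.37), Cd8a (−0.13) and Itgae (−0.17; −0.044 with poly-A scaling). Each scale moves all genes of an array alike, so these turns follow from its construction. Hybridization scaling also made a call for Ms4a8a with butyrate (−0.45, limma adjusted p = 0.00016).

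The labels' replicate numbers were not taken as pairs, because correlations of deviations between same-numbered arrays ran from −0.12 to 0.21. These correlations over all genes do not settle whether the numbers are pairs. Ms4a6c and the brighter Ms4a6d probe sets fell from replicate 1 to replicate 3 in both the untreated and the TSA arrays. Ms4a6b, Ms4a4c and Ms4a7 did not keep that order in both groups. With the replicate number as a block 3204 genes were called higher and 2528 lower with TSA, 4068 and 3021 with butyrate, and 1807 and 2309 between the inhibitors. Among Ms4a genes the block ended the call of Ms4a1 between the inhibitors (0.25, limma adjusted p = 0.0656) and made one for Ms4a4d (0.21, 0.0181). Low signal limits what can be said of Ms4a2, Ms4a4d, Ms4a10 and Itgae.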
